A study of Mus musculus with 15 samples.

Results

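Lysosomes digest what a cell takes up or sets aside for breakdown, and their machinery was followed here through 41 genes. The list was given by symbol, holds no cathepsin, and was read in the tibialis anterior, the muscle along the front of the shin. All 41 symbols were found once among 55416 genes, and all 41 had enough counts to be tested. They fall into 19 soluble hydrolases, 4 lumenal activators and carriers, 9 membrane proteins and 9 subunits or accessory proteins of the V-ATPase, the proton pump. Of the 9 membrane proteins, Cln6 sits in the membrane of the endoplasmic reticulum rather than in that of the lysosome.

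The muscle came from male C57BL/6 (C57BL/6NCrlOri) mice that were 6 to 8 weeks old when the experiment began. Control mice (n = 5) carried no tumour, and no antibody is named for them. The other 3 groups had received cells of the KrasIKKaL tumour line through the trachea. They were then given an isotype antibody, IgG, with no dose stated (n = 4, so named in the protocol, while the treatment field reads anti-IgG), anti-PD-L1 at 200 µg per kg (n = 3) or anti-CD8a at 200 µg (n = 3). The last 2 antibodies were injected into the abdomen 3 times a week. PD-L1 is a ligand that restrains T cells, and CD8a marks cytotoxic T cells. IgG and control differ in both tumour and antibody, so these cannot be told apart in that comparison. The labels name no genetic change in the mice, and whether every library is from a mouse of its own is not stated, so p-values measure the spread between libraries.

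As background, newly made hydrolases travel from the Golgi to the lysosome, mostly by a mannose 6-phosphate tag. They work at the low pH that the V-ATPase creates by pumping protons across the membrane. Glycosylated membrane proteins line the inside of the organelle, and transporters carry the products of digestion out. Transcription factors of the TFEB family can raise many of these genes together through E-box sequences near their start sites, and the kinase mTORC1 holds TFEB outside the nucleus when nutrients are plentiful. In skeletal muscle, loss of acid alpha-glucosidase or of LAMP2 causes glycogen or autophagic vacuoles to build up.

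The 15 libraries held 15894822 to 22459370 expected counts each, and 18571 to 19970 genes were above 0. Levels below are CPM, which are counts scaled to a common library size with TMM, a correction for library composition, unless TPM, the transcript level per length, is named. The 9 markers of skeletal muscle fibres were present in every library, and their summed level was 62424 to 122490 CPM. IgG replicate 2 and anti-PD-L1 replicate 2 stood apart from their groups on the first principal component, which held 56.1% of the variance of all genes tested. Each count below was also made without them, and is given where it moved by over 1.5 times. A gene was called higher or lower at an adjusted p under 0.05 in edgeR's quasi-likelihood test with Benjamini-Hochberg adjustment over 14372 genes.

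Levels per length in the control muscle spanned a wide range. The highest was Psap, the precursor of the saposins that help lipid-degrading enzymes, at 225 ± 27.0 TPM (SD, n = 5). Lamp1, a glycoprotein of the lysosome membrane, was at 157 ± 13.1 TPM, and Atp6v0c, which forms the proton-carrying ring of the pump, at 105 ± 9.48 TPM. The 3 lowest were hydrolases of glycosaminoglycans or glycolipids. Galns was at 0.386 ± 0.128 TPM, Glb1 at 0.820 ± 0.271 TPM and Sgsh at 0.942 ± 0.159 TPM. The range of Glb1 (0.54 to 1.12 TPM) overlapped those of Galns (0.3 to 0.61) and Sgsh (0.76 to 1.12), and that of Sgsh overlapped Gla (0.73 to 1.46), the next above. Arsb (1.07 to 1.8) overlapped Glb1, Sgsh and Gla as well. Of the order of these 5, only the place of Galns below Sgsh, Gla and Arsb goes beyond the ranges.

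Summed per class, IgG and anti-PD-L1 muscle held more of this RNA than control or anti-CD8a muscle. The 19 hydrolases summed to 148 ± 16.1 TPM in control, 330 ± 61.2 in IgG, 319 ± 13.6 in anti-PD-L1 and 154 ± 15.2 in anti-CD8a. Gaa, the acid alpha-glucosidase that breaks down glycogen, made up 38.4% ± 2.71 of the hydrolase sum in control and 66.3% ± 5.95 in IgG. Without Gaa, the other hydrolases summed to 91.0 ± 11.4 TPM in control, 109 ± 12.5 in IgG, 145 ± 15.3 in anti-PD-L1 and 97.3 ± 5.29 in anti-CD8a. Without Gaa the ranges of control (77.1 to 108.9 TPM) and IgG (98.5 to 126.7 TPM) overlapped. The 9 membrane proteins summed to 362 ± 28.8 TPM in control, 762 ± 91.4 in IgG, 695 ± 70.4 in anti-PD-L1 and 409 ± 18.7 in anti-CD8a. For the pump the sums were 298 ± 28.4, 475 ± 58.0, 462 ± 39.9 and 306 ± 13.4 TPM in the same order of groups. For the 4 activators and carriers they were 249 ± 29.4, 385 ± 92.3, 382 ± 41.4 and 266 ± 13.6 TPM. Psap alone held most of these, at 225 ± 27.0, 357 ± 91.8, 334 ± 43.7 and 241 ± 7.81 TPM. In TPM, the IgG libraries of every class all lay above the control libraries. Since TPM depends on everything else in a library, the sums were also taken in CPM. The hydrolases were at 920 ± 167 CPM in IgG and 757 ± 50.7 in anti-PD-L1, against 436 ± 27.9 in control and 440.4 ± 37.5 in anti-CD8a. Gaa alone held 667 ± 165 CPM of the IgG sum and 197 ± 23.8 CPM of the control sum. Most of the IgG rise in this sum was thus that of Gaa. In CPM the IgG libraries again lay above control for hydrolases, membrane proteins and the pump, but not for the activators and carriers. In that class IgG reached down to 691 CPM and control up to 749 CPM, and anti-PD-L1, at 735 to 911 CPM, overlapped control too.

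**Figure D1:**
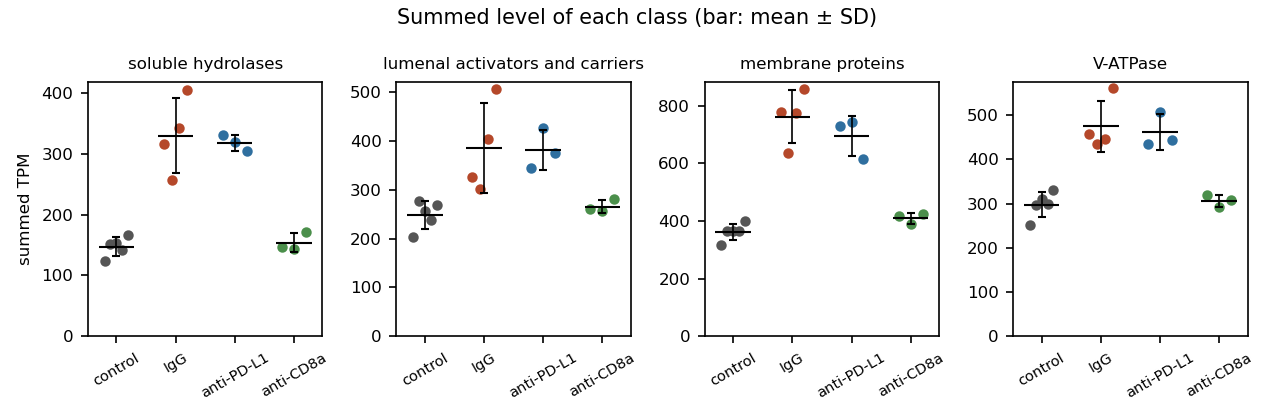
Summed TPM of each class (vertical axis) in every library of the 4 groups (horizontal axis); the bar is the mean and the whisker the SD. In each panel the IgG libraries lie above the control libraries, and in the hydrolase panel control lies at 123 to 167 TPM and IgG at 258 to 405 TPM.

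The E-box core bound by TFEB-family factors, CACGTG, was searched for in the 300 bases around the start sites, 250 before and 50 after, of RefSeq genes on GRCm38.p6. The core reads the same on both strands. Of the 41 members, 36 had an entry in the promoter table. Galns, Asah1, Npc1, Atp6v1b2 and Atp6v1h had none. The core stood in 13 of the 36 members (36.1%), against 2187 of all 27025 genes in the table (8.09%). The longer form, GTCACGTG or its reverse complement CACGTGAC, which contains the core, stood in 11 of 36 members (30.6%), against 2.55% of all genes. By class the core was found in 7 of 17 hydrolases, 0 of 4 activators and carriers, 3 of 8 membrane proteins and 3 of 7 genes of the pump. It was found beside genes of either direction: in 6 of 17 members that were higher in IgG than in control, 4 of 7 that were lower and 3 of 12 that were not called. A match describes letters in a window, not a bound site.

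The 250 bases before the start are shown for 4 of the members with the longer form that were called in IgG against control. Of such members 4 were higher and 4 lower. Those shown have the smallest p among those with the longer form before the start and at most 30 bases of the window inside the gene as GENCODE draws it, which left Lamp1 (higher) and Sgsh, Atp6v0b and Glb1 (lower). Capitals mark every CACGTG core. Sgsh lies at chr11:119355511-119355760 (minus strand), Lamp1 at chr8:13158911-13159160 (plus strand), Atp6v0b at chr4:117887330-117887579 (minus strand) and Glb1 at chr9:114400828-114401077 (plus strand), all on GRCm38.p6. Lamp1 carries 4 cores in this window, Atp6v0b carries 2, and Sgsh and Glb1 carry 1 each.
Sgsh: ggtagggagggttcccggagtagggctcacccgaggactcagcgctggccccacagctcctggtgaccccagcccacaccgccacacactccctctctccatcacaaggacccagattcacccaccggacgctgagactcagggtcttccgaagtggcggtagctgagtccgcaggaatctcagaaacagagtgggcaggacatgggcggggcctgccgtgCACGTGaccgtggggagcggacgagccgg
Lamp1: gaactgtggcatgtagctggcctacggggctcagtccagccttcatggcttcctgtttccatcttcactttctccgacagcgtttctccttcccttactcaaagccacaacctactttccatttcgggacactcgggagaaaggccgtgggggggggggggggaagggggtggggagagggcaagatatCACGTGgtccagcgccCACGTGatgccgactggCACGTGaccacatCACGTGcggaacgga
Atp6v0b: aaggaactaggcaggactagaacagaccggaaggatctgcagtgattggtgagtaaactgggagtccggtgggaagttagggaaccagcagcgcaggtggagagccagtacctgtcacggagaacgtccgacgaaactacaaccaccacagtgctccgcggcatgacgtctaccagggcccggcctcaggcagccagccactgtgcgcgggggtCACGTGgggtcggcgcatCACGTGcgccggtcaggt
Glb1: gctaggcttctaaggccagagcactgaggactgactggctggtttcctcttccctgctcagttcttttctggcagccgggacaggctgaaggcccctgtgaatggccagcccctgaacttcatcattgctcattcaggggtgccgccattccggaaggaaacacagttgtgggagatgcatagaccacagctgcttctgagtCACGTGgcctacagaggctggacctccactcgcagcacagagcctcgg

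The first comparison set tumour-bearing mice given IgG against control mice. Most of the pump and of the membrane proteins rose, while hydrolases moved both ways. Of the 41 members, 21 were higher in IgG, or 51.2%, where 30.2% of all genes tested were higher. Another 8 members, or 19.5%, were lower, where 28.4% of all genes were lower, and 12 were not called. The median log2 fold change was 0.39 over the members and -0.02 over all genes tested. The pump had 7 of 9 genes higher and 1 lower (median 0.64), and the membrane proteins also had 7 of 9 higher and 1 lower (median 0.47). Of the 19 hydrolases, 6 were higher and 6 lower (median -0.07), so each share, 31.6%, was near that of all genes. Of the 4 activators and carriers, 1 was higher. Upper-quartile normalization moved the median of all genes to -0.27, with 22.54% of all genes higher and 38.4% lower, and left 16 members higher and 12 lower.

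Among membrane proteins, Slc15a4, a proton-coupled transporter of histidine and small peptides, changed by the largest factor of all 41 members. Its level was 14.4, 18.0, 17.7, 16.8 and 14.1 CPM in control and 132, 67.8, 96.5 and 93.9 CPM in IgG. It was 54.3, 87.3 and 44.7 CPM in anti-PD-L1 and 11.5, 12.4 and 16.9 CPM in anti-CD8a. All IgG libraries were far above all control libraries, and the rise on the log2 scale was 2.59 ± 0.21 (SE; adjusted p = 5.4e-07, edgeR), or 6.03-fold. Npc1, which moves cholesterol out of the lysosome, was at 64.8, 99.6, 127, 73.5 and 67.0 CPM in control and 523, 348, 303 and 466 CPM in IgG. In anti-PD-L1 it was at 158, 388 and 200.2 CPM and in anti-CD8a at 73.4, 49.1 and 77.6 CPM. The IgG and control ranges of Npc1 did not overlap, and the log2 fold change was 2.25 ± 0.27 (adjusted p = 7.13e-06, edgeR).

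Lamp2, the membrane glycoprotein needed for autophagic vacuoles to mature, was at 94.6, 98.1, 101, 82.7 and 97.2 CPM in control. Its IgG libraries held 259, 185, 213 and 278 CPM, its anti-PD-L1 libraries 196, 203 and 157 CPM and its anti-CD8a libraries 135, 123 and 111 CPM. Every tumour-bearing library was thus above every control library, and the IgG rise was 1.301 ± 0.13 on the log2 scale (adjusted p = 1.96e-06, edgeR). Cd63, a tetraspanin of late endosomes and lysosomes, was at 103, 93.8, 91.5, 100.1 and 87.0 CPM in control and 147, 108, 204 and 142 CPM in IgG. The groups did not overlap, and the rise was 0.66 ± 0.16 (adjusted p = 0.00204, edgeR). Reads of Cd63 could be shared with its processed pseudogene, Cd63-ps. Lamp1, Mcoln1 (a calcium channel) and Cln6 were also higher, by 0.47 ± 0.12, 0.39 ± 0.12 and 0.39 ± 0.16. Those 3 calls were lost under upper-quartile normalization. That of Mcoln1 was also lost without IgG replicate 1, and that of Cln6 with DESeq2 and without any 1 of control replicates 1, 2, 3 and 5 or IgG replicates 1, 3 and 4.

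Cln3, a lysosomal membrane protein lost in a juvenile form of neuronal storage disease, was the membrane protein that fell. It was at 4.65, 5.66, 4.26, 3.89 and 4.19 CPM in control and 1.74, 2.59, 3.09 and 2.63 CPM in IgG. All IgG libraries lay below control, with a log2 fold change of -0.85 ± 0.24 (adjusted p = 0.00637, edgeR). Scarb2, the receptor that carries glucocerebrosidase to the lysosome, was not called, with a log2 fold change of 0.09 ± 0.13.

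The pump was led by Atp6v1h, a regulatory subunit between the catalytic head and the membrane sector. It was at 13.4, 15.8, 18.5, 12.7 and 14.5 CPM in control and 103, 70.2, 81.1 and 92.4 CPM in IgG. In anti-PD-L1 it was at 35.3, 88.4 and 37.3 CPM and in anti-CD8a at 17.0, 23.0 and 17.9 CPM. Control and IgG were widely separated, and the log2 fold change was 2.54 ± 0.24 (adjusted p = 9.74e-07, edgeR), or 5.80-fold. Atp6v0a1, the a subunit through which protons pass, was at 38.2, 51.8, 50.7, 38.9 and 36.6 CPM in control and 87.8, 79.2, 61.6 and 75.9 CPM in IgG. It did not overlap either and rose by 0.82 ± 0.14 (adjusted p = 0.000185, edgeR).

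Atp6v0d1, which joins the rotor of the pump to its membrane ring, was at 27.1, 30.9, 39.4, 31.2 and 28.4 CPM in control and 55.7, 40.2, 51.4 and 52.4 CPM in IgG. The lowest IgG library was just above the highest control library, and the rise was 0.67 ± 0.14 (adjusted p = 0.00057, edgeR). Atp6v1b2, a B subunit of the catalytic head, was at 46.7, 50.8, 69.1, 48.7 and 44.1 CPM in control and 58.2, 82.8, 62.1 and 149.5 CPM in IgG. Those ranges overlapped and the spread in IgG was wide, with a log2 fold change of 0.76 ± 0.22 (adjusted p = 0.00811, edgeR), a call lost under upper-quartile normalization. The remaining risers were Atp6v1a, the catalytic A subunit (0.64 ± 0.12), Atp6ap2, an accessory protein (0.63 ± 0.14), and Atp6v0c (0.61 ± 0.12). Atp6v0c has 2 processed pseudogenes that could share its reads.

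Against the rest of the pump, Atp6v0b, another subunit of the proton-carrying ring, was lower in IgG. Its levels were 68.4, 57.9, 56.0, 68.8 and 64.0 CPM in control and 50.3, 45.7, 48.2 and 42.0 CPM in IgG. All IgG libraries were below all control libraries, although the fall was small, -0.44 ± 0.11 (adjusted p = 0.00396, edgeR). Atp6ap1, the other accessory protein, was not called, at -0.10 ± 0.10.

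Of the hydrolases, Gaa had the clearest rise. It was at 184, 212, 231, 186 and 173 CPM in control and 678, 436, 821 and 735 CPM in IgG. In anti-PD-L1 it was at 463, 513 and 414 CPM and in anti-CD8a at 179, 173 and 226 CPM. The anti-CD8a levels lay with control and the other treated groups lay above, with an IgG change of 1.76 ± 0.17 (adjusted p = 1.16e-06, edgeR). Naglu, which cleaves heparan sulfate, was at 3.59, 3.83, 4.31, 3.68 and 4.55 CPM in control and 15.1, 6.98, 13.4 and 16.6 CPM in IgG. The groups did not overlap, and the rise was 1.70 ± 0.22 (adjusted p = 1.34e-05, edgeR). Galns, which removes sulfate from keratan and chondroitin sulfate, was at 0.897, 1.53, 0.920, 0.811 and 0.802 CPM in control and 3.35, 2.77, 2.90 and 6.35 CPM in IgG. The change was 1.95 ± 0.37 (adjusted p = 0.000311, edgeR), at a low level.

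Neu1, the lysosomal sialidase, was at 11.1, 10.1, 10.9, 11.6 and 11.4 CPM in control and 21.7, 16.3, 19.3 and 20.03 CPM in IgG. It rose by 0.81 ± 0.11 (adjusted p = 2.53e-05, edgeR), with no overlap. Idua, which acts on heparan and dermatan sulfate, rose by 0.79 ± 0.16, and Man2b1, the lysosomal alpha-mannosidase, by 0.76 ± 0.15.

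The hydrolases that fell include enzymes of the same kind of substrate. Gusb, the beta-glucuronidase, was at 7.51, 9.20, 7.99, 9.03 and 8.87 CPM in control and 2.92, 4.33, 2.46 and 3.91 CPM in IgG, a log2 fold change of -1.32 ± 0.25 (adjusted p = 0.000346, edgeR). Sgsh, which removes sulfate from heparan sulfate, was at 4.15, 3.83, 3.57, 4.98 and 4.19 CPM in control and 1.18, 2.71, 1.51 and 1.71 CPM in IgG, a change of -1.22 ± 0.25 (adjusted p = 0.000564, edgeR). So 1 enzyme of heparan sulfate breakdown, Naglu, was higher and another, Sgsh, was lower. Arsb, which removes sulfate from dermatan and chondroitin sulfate, was at 6.06, 5.78, 4.66, 5.25 and 6.55 CPM in control and 2.61, 3.73, 2.08 and 1.59 CPM in IgG, a change of -1.18 ± 0.23 (adjusted p = 0.000418, edgeR). Ppt1, which removes palmitate from proteins, was at 9.36, 10.3, 9.43, 10.2 and 10.8 CPM in control and 3.54, 6.68, 4.98 and 4.34 CPM in IgG, a change of -1.03 ± 0.17 (adjusted p = 0.000117, edgeR). None of these 4 had overlapping ranges. Glb1 (-0.74 ± 0.29) and Asah1 (-0.35 ± 0.14) were also lower. The call of Glb1 was lost without any 1 of control replicates 1, 4 and 5 or IgG replicates 1 and 2, and that of Asah1 without any 1 of control replicates 1, 3 and 5 or IgG replicates 1, 3 and 4. Exons of Sgsh and Arsb overlap genes of the opposite strand over 21.6% (Card14) and 32.3% (Gm26527) of their length on GRCm38. The labels do not say whether counting used strand, so those values are less certain.

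Psap was the member of the activators and carriers that rose. It was at 577, 677, 653, 569 and 555 CPM in control and 753, 615, 971 and 981 CPM in IgG. The ranges overlapped through IgG replicate 2, and the change was 0.45 ± 0.15 (adjusted p = 0.0149, edgeR), a call that upper-quartile normalization and leaving out IgG replicate 3 or 4 each removed.

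Markers of other cells moved in the same comparison. The 15 macrophage markers summed to 166 ± 35.6 CPM in control (115 to 210.5) and 91.6 ± 17.7 CPM in IgG (75.2 to 113), with 12 lower and 1 higher. All 15 were detected in every control library and 14 in every IgG library. Of 8 fibroblast markers 7 were lower, with summed levels of 1035 to 1429 CPM in control and 505 to 716 CPM in IgG. Markers of Schwann cells (3 of 4) and tendon cells (2 of 3) were also lower, as was the 1 B cell marker tested. The same held for 2 of 3 satellite cell markers, 2 of 5 endothelial markers and 1 of the 2 T cell markers tested. Of the 9 muscle fibre markers, 3 were lower and 1 higher. Higher were 3 of 3 red blood cell markers (277 ± 69.0 CPM summed in control, 1014 ± 706 in IgG), 3 of the 4 neutrophil markers tested (1.297 ± 1.75 and 6.21 ± 3.15 CPM) and 2 of the 3 tested markers of lung or tumour epithelium (1.28 ± 0.30002 and 5.58 ± 6.34 CPM). The part of these cells in the members that changed was not tested. In whole muscle, fewer cells of a type and less RNA per cell cannot be told apart.

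**Figure D2:**
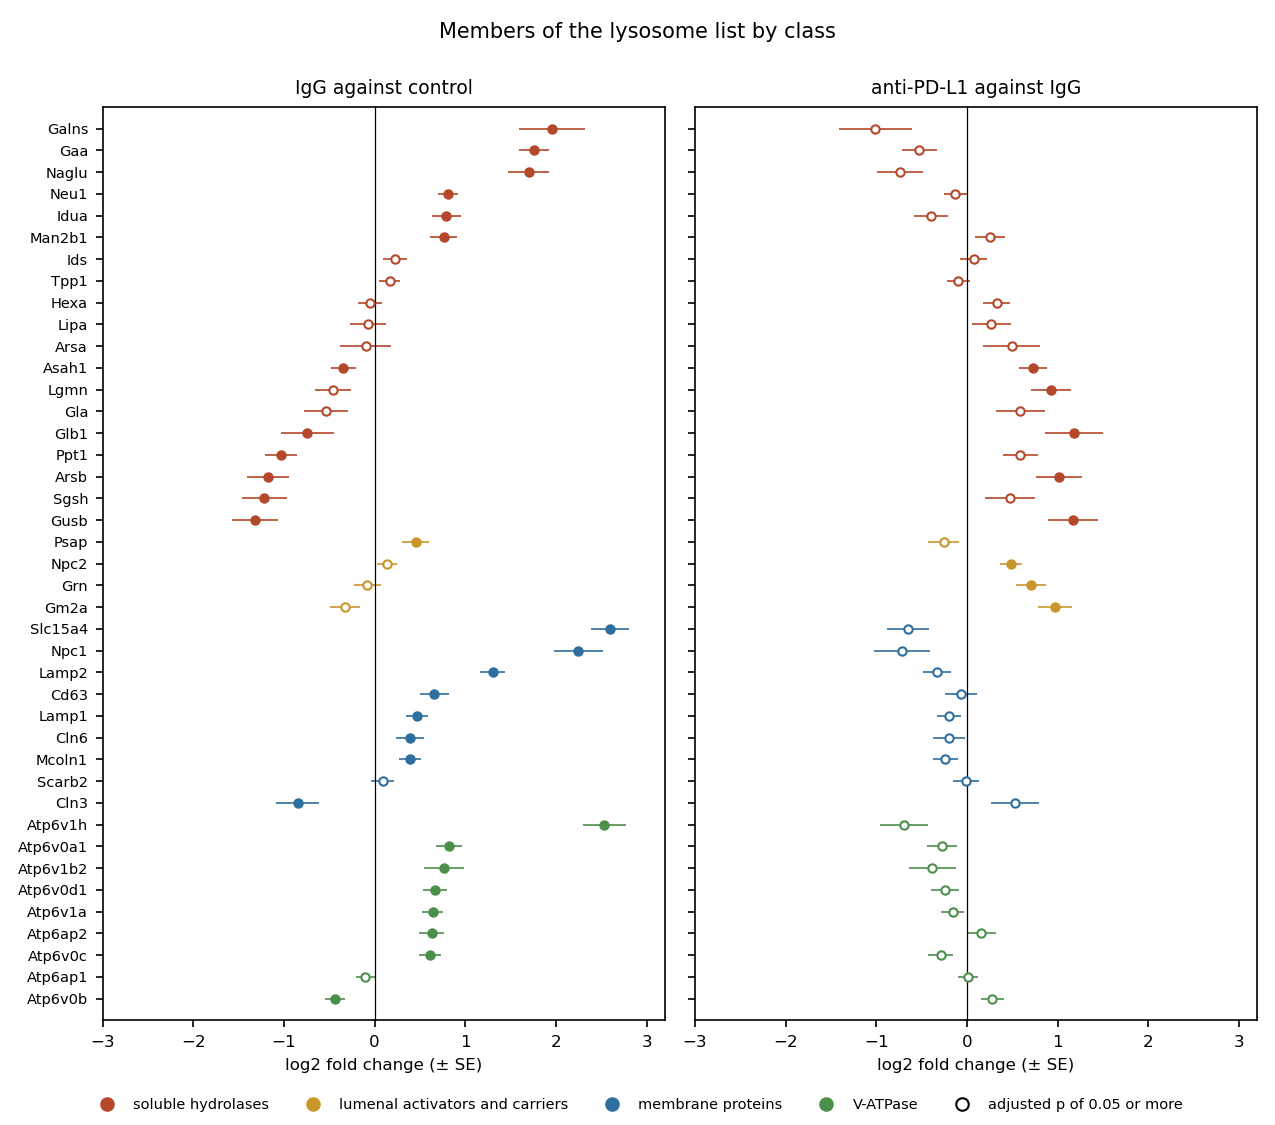
Log2 fold change ± SE of every member (horizontal axis), ordered by class and size, in IgG against control (left) and anti-PD-L1 against IgG (right); filled points have an adjusted p under 0.05. On the left most membrane and pump genes lie right of 0 while hydrolases run from 1.95 to -1.32, and on the right the 8 filled points are hydrolases, activators and carriers.

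**Figure D3:**
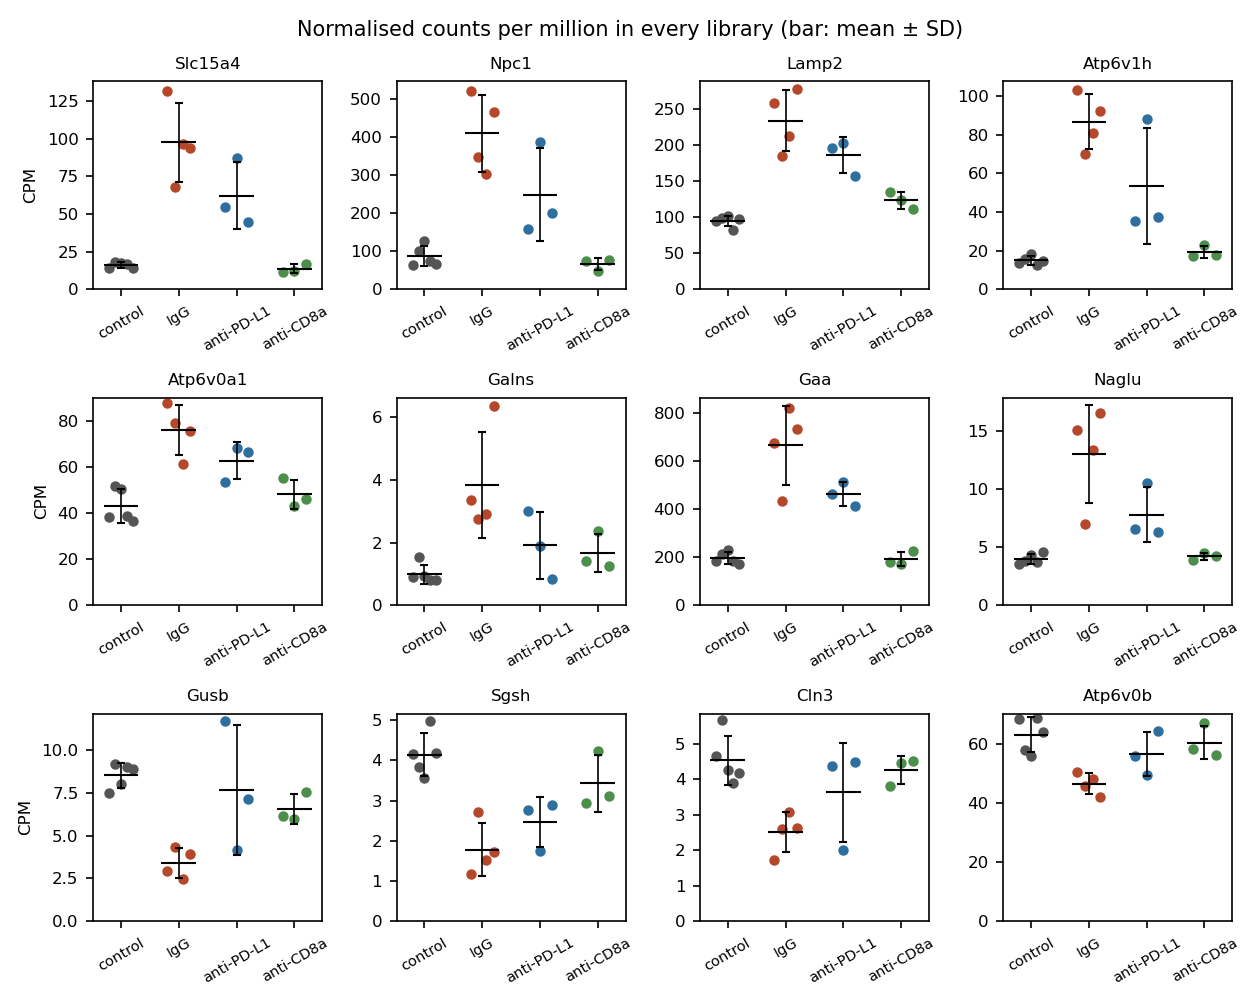
CPM (vertical axis) of 12 members in every library of the 4 groups, with the mean and SD; the 8 upper panels are members that rose in IgG and the 4 lower panels members that fell. The anti-CD8a libraries of Slc15a4, Npc1, Gaa and Naglu overlap those of control.

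Anti-PD-L1 was then compared with IgG, both in tumour-bearing mice. The 8 members that differed were all higher with anti-PD-L1, and all were soluble proteins of the lumen: 5 of 19 hydrolases and 3 of 4 activators and carriers. They make 19.5% of the members, where 3.96% of all genes tested were higher. None was lower, where 1.54% of all genes were. No membrane protein or pump gene was called, but only 5.50% of all genes were, so a count of 0 is near that share. Under the alternative runs up to 3 membrane proteins, up to 3 pump genes, up to 3 hydrolases and up to 1 activator or carrier were called lower. At an unadjusted p under 0.05, 12 members were higher (29.3%, against 14.4% of all genes) and 8 lower (19.5%, against 12.5%). The medians were 0.33 for hydrolases, 0.60 for activators and carriers, -0.20 for membrane proteins and -0.25 for the pump, against 0.01 for all genes. Upper-quartile normalization left the count of members at 8 higher, with 5.06% of all genes higher and 0.877% lower. The comparison shares the IgG libraries with the one before, so opposite signs in them are not independent.

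Gm2a, the activator that presents the ganglioside GM2 to its enzyme, was the steadiest. It was at 13.5, 16.9, 12.4 and 12.9 CPM in IgG and 27.0, 28.0 and 27.0 CPM in anti-PD-L1. Its control libraries held 16.9, 15.3, 15.6, 19.2 and 20.4 CPM and its anti-CD8a libraries 16.3, 16.9 and 29.0 CPM. The anti-PD-L1 libraries were above all IgG and control libraries, with a change against IgG of 0.97 ± 0.19 (adjusted p = 0.0113, edgeR). Grn, the precursor of the granulins, was at 17.8, 22.1, 19.5 and 17.8 CPM in IgG and 35.6, 31.8 and 27.2 CPM in anti-PD-L1. It rose by 0.71 ± 0.16 (adjusted p = 0.0258, edgeR) with no overlap. Npc2, which hands cholesterol to NPC1, was at 41.02, 36.7, 38.1 and 41.1 CPM in IgG and 61.9, 51.9 and 50.9 CPM in anti-PD-L1. It rose by 0.49 ± 0.12 (adjusted p = 0.0361, edgeR), also without overlap.

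Among the hydrolases, Asah1, the acid ceramidase, was at 12.4, 15.8, 12.9 and 14.0 CPM in IgG and 27.5, 17.9 and 23.1 CPM in anti-PD-L1, a change of 0.73 ± 0.15 (adjusted p = 0.0168, edgeR). Lgmn, the asparaginyl endopeptidase that also processes cathepsins, was at 14.6, 17.5, 9.89 and 17.0 CPM in IgG and 39.5, 23.0 and 21.9 CPM in anti-PD-L1, a change of 0.93 ± 0.22 (adjusted p = 0.0279, edgeR). In both, all anti-PD-L1 libraries were above all IgG libraries, and replicate 1 was the highest. Gusb was at 11.7, 4.16 and 7.17 CPM in anti-PD-L1, so its range overlapped that of IgG, and it changed by 1.17 ± 0.28 (adjusted p = 0.0287, edgeR). Arsb was at 5.43, 3.90 and 5.89 CPM in anti-PD-L1, a change of 1.02 ± 0.25 (adjusted p = 0.0336, edgeR). Glb1, the beta-galactosidase, was at 0.807, 1.08, 1.39 and 1.47 CPM in IgG and 3.38, 1.97 and 2.77 CPM in anti-PD-L1, a change of 1.19 ± 0.32 (adjusted p = 0.0432, edgeR). These 2 had no overlap with IgG. Of the exon length of Glb1, 5.49% overlaps Tmppe on the same strand.

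Macrophage markers were higher in the same libraries. Their sum was 679, 219 and 345 CPM in anti-PD-L1 replicates 1, 2 and 3, above the 75.2 to 113 CPM of IgG, and 13 of 15 markers were called higher. Replicate 1, with the highest sum, also had the highest Glb1, Gusb, Asah1, Lgmn, Npc2 and Grn of its group. Its muscle fibre markers had the lowest sum of all 15 libraries, 62424 CPM, against 88738 and 94726 CPM in replicates 2 and 3. Gm2a was highest in replicate 2 (28.0 CPM) and Arsb in replicate 3 (5.89 CPM). Of 8 fibroblast markers, 6 were higher too, with summed levels of 1060 to 1409 CPM in anti-PD-L1. So were 2 of the 4 neutrophil, 1 of the 2 T cell and 1 of the 3 satellite cell markers tested. The part of these cells in the 8 members was not tested, and no correlation over libraries is given because the libraries fall into separate groups of under 6. Counts in this comparison depended on the fit and the libraries used. A fit to these 2 groups alone called no member, with 0.276% of all genes called. DESeq2 called 9 members higher and 2 lower, with 5.75% of all genes higher and 5.96% lower. Leaving out IgG replicate 1 gave 1 member higher (1.06% of all genes higher). For IgG replicate 3 the count was 2 (1.56%) and for IgG replicate 4 it was 3 (1.31%). Leaving out anti-PD-L1 replicate 1 gave 1 (0.948%) and replicate 3 gave 3 (1.04%). Without the pair that stood apart, IgG replicate 2 and anti-PD-L1 replicate 2, 11 members were higher and 10 lower. Of all genes, 15.2% were then higher and 13.6% lower. Without either of them alone 4 members were lower. The share of all genes lower was 8.05% without IgG replicate 2 and 8.79% without anti-PD-L1 replicate 2. The call of Gm2a stood whichever single library was left out.

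The genes with the largest rise in IgG had lower means in anti-PD-L1 that did not pass the test. They were picked for high levels in these same IgG libraries, so a lower mean against IgG is no independent sign of a fall. Npc1 was lower by a log2 fold change of -0.72 ± 0.31 (adjusted p = 0.15), Atp6v1h by -0.69 ± 0.26 (adjusted p = 0.112) and Slc15a4 by -0.65 ± 0.23 (adjusted p = 0.0968), all by edgeR. In each of these, anti-PD-L1 replicate 2 was at the IgG level and the other libraries were below all IgG libraries. Without anti-PD-L1 replicate 2 the changes were -1.19, -1.26 and -0.98, with adjusted p of 0.0168, 0.0018 and 0.012 by edgeR. That omission removes the library nearest IgG in these genes, so the wider gap follows from the choice. It also took the share of all genes called from 5.50% to 18.5%. Of 14 alternative runs, 2 called Npc1, 2 called Atp6v1h and 3 called Slc15a4. The smallest changes among those runs were -0.48, -0.46 and -0.46 in the same order.

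**Figure D4:**
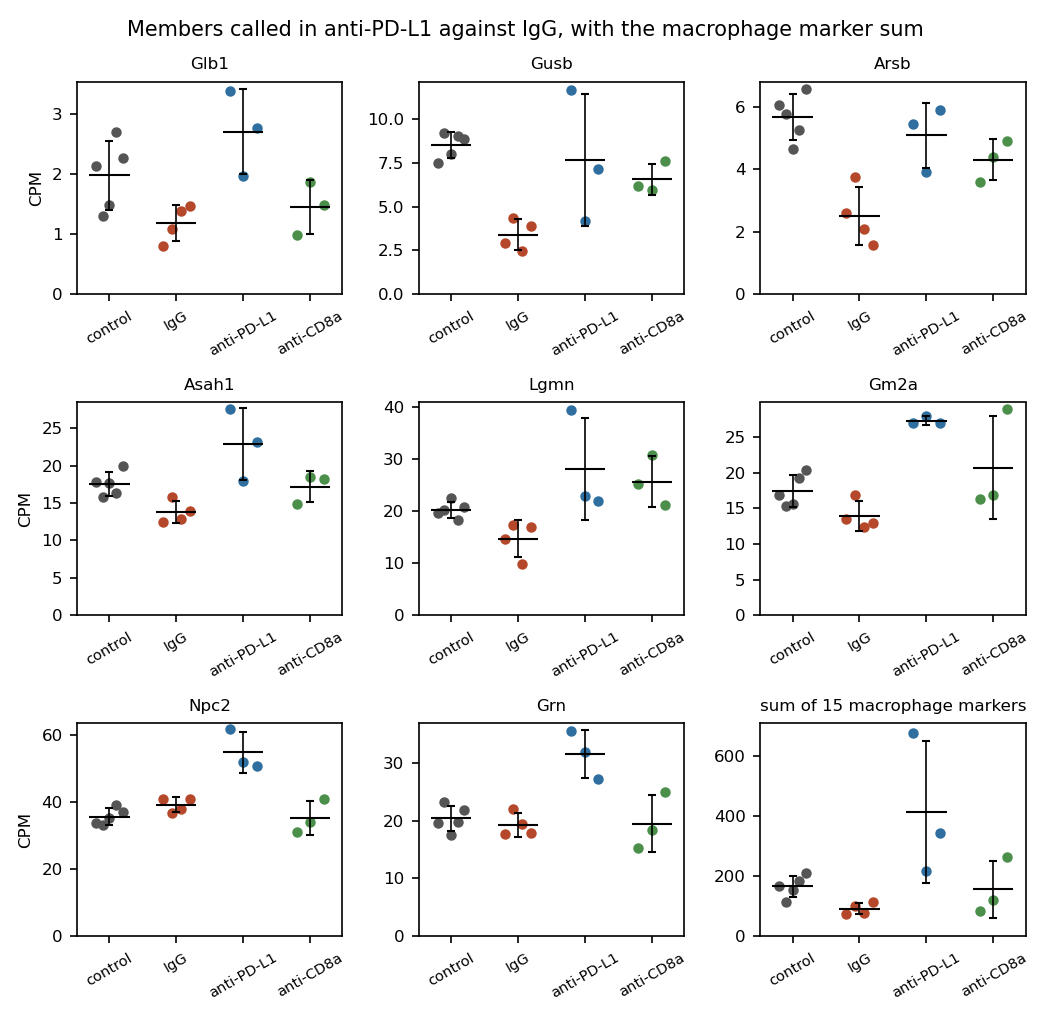
CPM (vertical axis) in every library of the 4 groups for the 8 members called in anti-PD-L1 against IgG, and the summed CPM of 15 macrophage markers (last panel), with mean and SD. The 8 genes were picked by their call between these same libraries, so a gap between IgG and anti-PD-L1 in their panels is no further support. In the Gusb panel these 2 groups overlap, and the marker sum reaches 679 CPM in anti-PD-L1 replicate 1.

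Anti-CD8a against IgG, again both in tumour-bearing mice, showed lower levels in 7 of 9 pump genes, while hydrolases and membrane proteins went both ways. These 7 are the pump genes called higher in IgG against control. Both comparisons use the same IgG libraries, so opposite signs in them are not independent. Of the members, 17 were lower with anti-CD8a, or 41.5%, where 24.8% of all genes tested were lower. Another 9 were higher, or 22.0%, where 23.2% of all genes were higher, so that share was near the background. Upper-quartile normalization gave 11 members lower and 11 higher, with 17.7% of all genes lower and 32.2% higher. The pump had 7 of 9 genes lower (77.8%) and 1 higher (11.1%). The membrane proteins had 4 lower (44.4%) and 2 higher (22.2%), the second share near that of all genes. The hydrolases had 6 lower (31.6%) and 5 higher (26.3%), both near the shares of all genes. Of the activators and carriers, Gm2a was higher, by 0.57 ± 0.19.

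Slc15a4 was at 97.5 ± 26.3 CPM in IgG and 13.6 ± 2.86 in anti-CD8a, a change of -2.84 ± 0.26 (adjusted p = 9.61e-06, edgeR), or 7.16-fold lower. Npc1 was at 409.8 ± 102 and 66.7 ± 15.4 CPM (-2.62 ± 0.34), and Lamp2 at 234 ± 42.5 and 123 ± 11.7 CPM (-0.92 ± 0.16). Of the pump, Atp6v1h was at 86.7 ± 14.2 and 19.3 ± 3.22 CPM (-2.17 ± 0.28), Atp6v0d1 at 49.9 ± 6.75 and 28.2 ± 0.827 CPM (-0.82 ± 0.16) and Atp6v1b2 at 88.1 ± 42.3 and 50.4 ± 1.78 CPM (-0.81 ± 0.26). The ring subunit Atp6v0b went the other way, by 0.38 ± 0.13. Among hydrolases, Gaa was lower by -1.79 ± 0.20, Naglu by -1.62 ± 0.26 and Galns by -1.20 ± 0.41, while Ppt1 was higher by 1.07 ± 0.19, Gusb by 0.94 ± 0.28 and Sgsh by 0.94 ± 0.27. Cln3 (0.76 ± 0.27) and Cln6 (0.53 ± 0.18) were the higher membrane proteins. The macrophage sum was 83.1, 121 and 263.5 CPM in anti-CD8a, and 10 of its 15 markers were higher than in IgG and 1 lower. Of 8 fibroblast markers 6 were higher, with sums of 883 ± 78.6 CPM in anti-CD8a and 635 ± 94.8 in IgG. Higher too were 2 of 3 tendon cell, 2 of 3 satellite cell and 1 of 4 Schwann cell markers. So were the 2 T cell markers and the 1 B cell marker tested. The 3 tested markers of lung or tumour epithelium and 1 of 3 red blood cell markers were lower. The part of these cells in the members that changed was not tested. Without anti-CD8a replicate 1 the lower count was 11 (19.9% of all genes), and without replicate 2 the higher count was 5 (18.8% of all genes). Single libraries ended some of these calls. They were those of Galns, Cln6 and Atp6v1b2 without anti-CD8a replicate 1, of Sgsh, Cln3, Cln6 and Atp6v0b without replicate 2, and of Galns, Gm2a, Cln3 and Atp6v1b2 without replicate 3. They were also those of Cln3 without IgG replicate 1, of Gm2a without IgG replicate 3, and of Galns, Atp6v0b and Atp6v1b2 without IgG replicate 4.

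Set directly against control, no member passed the threshold in anti-CD8a muscle by edgeR (0 of 41), and DESeq2 called 1. At an unadjusted p under 0.05, 2 were higher and 0 lower. That is 4.88% higher, near the 4.25% of all genes. In a fit to these 2 groups alone, 7 members had an unadjusted p under 0.05, with 0.408% of all genes called. Across all genes tested 0.00696% were higher and 0.00696% lower. The fitted changes of the members ran from -0.45 to 0.92 on the log2 scale, and a p that misses the threshold does not show that levels were equal. The largest was Cln6. It was at 12.2, 13.0, 12.7, 14.3 and 11.5 CPM in control and 29.4, 26.9 and 16.0 CPM in anti-CD8a, and at 16.7 ± 1.27 CPM in IgG and 14.5 ± 1.94 CPM in anti-PD-L1. The anti-CD8a libraries were above all control libraries, but replicate 3 was close to the IgG level. The change was 0.92 ± 0.17 (adjusted p = 0.0805, edgeR), and 1.16 with an adjusted p of 0.00672 without replicate 3. Lamp1, Lamp2 and Mcoln1 were not called, but their anti-CD8a libraries also lay above all control libraries. Lamp1 was at 374 to 406 CPM against 335 to 363 in control, and Lamp2 at 111 to 135 against 82.7 to 101. For Mcoln1 the gap was narrow, at 19.55 to 20.26 CPM against 16.85 to 19.45.

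Against control, anti-PD-L1 muscle was higher in 16 members (39.0%) and lower in 1 (2.44%), where 20.8% of all genes tested were higher and 13.9% lower. Upper-quartile normalization gave 12 and 2 members, with 14.8% of all genes higher and 18.5% lower. The control libraries are those of the earlier comparisons with control. The largest rises were in Slc15a4 (1.94 ± 0.22), Atp6v1h (1.84 ± 0.25), Npc1 (1.53 ± 0.29) and Gaa (1.23 ± 0.18). Man2b1 was at 20.2 ± 1.81 CPM in anti-PD-L1 and 9.98 ± 1.26 in control (1.02 ± 0.16), Naglu rose by 0.96 ± 0.24 and Lamp2 by 0.97 ± 0.14. Of the pump, Atp6ap2 rose by 0.79 ± 0.15 and Atp6v0a1 by 0.54 ± 0.16. All of Gm2a (0.64 ± 0.18), Grn (0.63 ± 0.15) and Npc2 (0.62 ± 0.12) were higher than in control. Sgsh was the lower member, at 2.47 ± 0.625 CPM against 4.14 ± 0.531 (-0.74 ± 0.26, adjusted p = 0.0349, edgeR), and that call was lost without any 1 of control replicates 1, 4 and 5 or of anti-PD-L1 replicates 1 and 2. The calls of Naglu and Atp6v0a1 were lost without anti-PD-L1 replicate 2. In the same comparison 9 of 15 macrophage markers were higher, with a summed level of 415 ± 237.7 CPM against 166 ± 35.6. Higher too were 4 of the 4 neutrophil markers tested and 2 of 3 adipocyte markers. Of 8 fibroblast markers 4 were lower and 1 higher. Lower were 3 of 4 Schwann cell, 2 of 3 tendon cell, 2 of 5 endothelial and 2 of 9 muscle fibre markers, and the 1 B cell marker tested. Of the 2 T cell markers tested, 1 was higher and 1 lower. The part of these cells was not tested.

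Between the 2 treatments, anti-PD-L1 exceeded anti-CD8a in 12 members (29.3%) and fell below it in 1 (2.44%), where 12.1% of all genes tested were higher and 7.64% lower. Upper-quartile normalization gave 10 and 1 members, with 8.57% of all genes higher and 10.5% lower. The members with the largest difference were Slc15a4 (2.19 ± 0.26), Npc1 (1.90 ± 0.34), Atp6v1h (1.48 ± 0.29) and Gaa (1.27 ± 0.21). Naglu (0.88 ± 0.27), Man2b1 (0.83 ± 0.18), Grn (0.69 ± 0.18), Npc2 (0.64 ± 0.13), Atp6ap2 (0.59 ± 0.17), Lamp2 (0.59 ± 0.16) and Atp6v0d1 (0.58 ± 0.17) were higher too. Cln6 was the lower member, at -0.73 ± 0.19, with overlapping ranges. Its call was lost without anti-PD-L1 replicate 1 and without anti-CD8a replicate 1 or 2. Without anti-CD8a replicate 1, 7 members were higher, with 4.99% of all genes higher. Of the others named, Slc15a4, Npc1, Atp6v1h, Gaa, Man2b1 and Npc2 were called whichever single library was left out. Lamp2 and Atp6ap2 were lost without anti-PD-L1 replicate 1, and Naglu, Lamp2, Atp6v0d1 and Atp6ap2 without anti-PD-L1 replicate 2. Naglu, Grn, Atp6v0d1 and Atp6ap2 were lost without anti-CD8a replicate 1, Naglu, Grn, Lamp2 and Atp6v0d1 without replicate 2, and Naglu, Lamp2, Atp6v0d1 and Atp6ap2 without replicate 3. Macrophage markers were higher with anti-PD-L1 in 8 of 15 cases (415 ± 237.7 against 156 ± 95.1 CPM summed) and neutrophil markers in 2 of 4 tested. Of 8 fibroblast markers 2 were higher and 3 lower, and 2 of 3 tendon cell markers were lower. The part of all these cells was not tested. The 2 antibodies were dosed on different scales, per kg and per injection, so this comparison is not one of matched doses.

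Other genes of the pathway were counted in IgG against control from 4 lists. Of 16 further V-ATPase subunits 11 were tested, 4 were higher (36.4%, near the 30.2% of all genes) and 0 lower, where 28.4% of all genes were lower. Atp6v0e, a small membrane subunit, was at 13.6 ± 1.40 CPM in control and 33.1 ± 6.65 in IgG (1.28 ± 0.14, adjusted p = 3.69e-06, edgeR), Atp6v1c1 rose by 0.62 ± 0.11 and Atp6v1d by 0.55 ± 0.12. Atp6v0d2, a subunit best known from osteoclasts and macrophages, was below the filter, with 36, 5 and 5 counts in anti-PD-L1 and 0 to 4 counts elsewhere. Of 21 further hydrolases 4 were higher and 6 lower. Plbd2 rose by 1.24 ± 0.16. Naaa (-0.95 ± 0.35), Pla2g15 (-0.92 ± 0.29) and Aga (-0.88 ± 0.17) were the lower ones of largest change. These shares, 19.0% and 28.6%, are below and near those of all genes (30.2% higher, 28.4% lower). The call of Naaa was lost without control replicate 5, IgG replicate 1 or IgG replicate 3.

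The list of TFEB-family factors and their control by mTORC1 had 18 of 19 genes tested, 6 higher (33.3%, near the 30.2% of all genes) and 3 lower in IgG (16.7%, against 28.4%). Mitf, a factor of that family, was at 12.3 ± 0.842 CPM in control and 31.5 ± 5.86 in IgG (1.36 ± 0.15, adjusted p = 3.1e-06, edgeR). Mtor, the kinase itself, rose by 1.05 ± 0.17 and Rragc, a GTPase that recruits it to the lysosome, by 1.02 ± 0.19. Tfeb, named here after its values were seen, was at 43.2 ± 3.03 CPM in control, 77.7 ± 22.9 in IgG, 73.6 ± 4.82 in anti-PD-L1 and 53.7 ± 10.4 in anti-CD8a, a rise in IgG of 0.85 ± 0.16 (adjusted p = 0.000326, edgeR). Lamtor4 (-0.98 ± 0.15) and Lamtor2 (-0.70 ± 0.13), parts of the scaffold that anchors mTORC1, fell, as did Rragd (-0.74 ± 0.16). Of the 6 genes of mannose 6-phosphate sorting, 1 was higher (16.7%) and 3 lower (50%). M6pr, a receptor for the tag, rose by 0.63 ± 0.10. Sort1, an alternative sorting receptor, changed by -0.76 ± 0.24, and Nagpa and Gnptab, which build the tag, by -0.50 ± 0.19 and -0.48 ± 0.17. The calls of Nagpa and Gnptab were lost without IgG replicate 3 or 4, and that of Nagpa also without IgG replicate 1 or control replicate 5.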

How the data were processed

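RNA of 15 tibialis anterior libraries was made into libraries with the MGIEasy RNA Directional kit, per the labels' protocols. Trim Galore, STAR 2.7.9a and RSEM 1.3.3 are named in the submitters' processing notes; the genome build, the annotation and the use of strand in counting are not given in the sources used here. The authors deposited RSEM expected counts and TPM per gene and library, for 55416 genes, 52083 of them with a symbol and 3333 with none (no more than 0.386% of any library). Of the non-zero expected counts in a library, 19.8% to 22.8% were not whole, because RSEM shares out reads that match several genes.

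Counts were rounded to whole numbers for edgeR 4.0.16, run under R 4.3.3. One quasi-likelihood model held all 4 groups (11 residual degrees of freedom), scaled by TMM, after filterByExpr had left 14372 genes. P-values were adjusted by Benjamini-Hochberg within a comparison. Each standard error is the size of the log2 fold change over the square root of its F statistic. By raw library totals, before the TMM correction, a count of 3 corresponds to 0.134 to 0.189 CPM, which covers counting error only. Means are given ± SD. The procedure was tested on simulated data.

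Genes were named by a rule. All members were counted in each of 6 comparisons. Values per library are given for up to 4 members per class and direction with the largest change in IgG against control, and for every member called in anti-PD-L1 against IgG. Group values cover up to 3 called members per class and direction elsewhere, and up to 3 pathway genes per list and direction. Some pathway genes that the rule selects are not reported here. Members named beyond these are added after their values were seen. The members and lists were chosen with earlier results of these data known. Gene positions, exon overlaps and pseudogenes come from a GENCODE annotation and promoters from RefSeq, both of GRCm38. Alternatives were RLE and upper-quartile normalization, no filter on low counts, a replicate block, a fit to the 2 groups compared, DESeq2 1.42.0 and leaving out libraries.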

Additional observations from a re-analysis of the deposited data

Results flagged for a closer look

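Each member was checked in the control and IgG groups, 82 checks in all, for a highest or lowest library set apart from the others by most of the group's range. This found 7 cases, and chance alone gives about 1 in 20 checks. Galns in IgG replicate 4 was at 6.35 CPM, with the other IgG libraries at 2.77 to 3.35, and in control replicate 2 at 1.53 CPM, with the others at 0.802 to 0.920. Mcoln1 in IgG replicate 1 was at 30.7 CPM, against 20.4 to 22.1 in the others. Atp6v1b2 in control replicate 3 was at 69.1 CPM, against 44.1 to 50.8. Gla, the alpha-galactosidase, was at 4.71 CPM in control replicate 3, against 2.64 to 3.18. Man2b1 in control replicate 5 was at 12.2 CPM, against 9.08 to 9.60. Atp6ap2 was low in control replicate 4, at 16.3 CPM, against 21.1 to 21.4.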

How the results depend on the processing

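No call of a member reversed under any alternative run. Of the 29 calls in IgG against control, 22 stood under all of them, as did 0 of 8 in anti-PD-L1 against IgG, 14 of 26 in anti-CD8a against IgG, 10 of 17 in anti-PD-L1 against control and 6 of 13 in anti-PD-L1 against anti-CD8a. For anti-PD-L1 against IgG, the fit to those 2 groups alone gave 0 members higher and leaving out 1 library gave 1 to 10. Of members lower, DESeq2 gave 2, leaving out 1 library 0 to 4, and leaving out IgG replicate 2 and anti-PD-L1 replicate 2 together 10. The share of all genes called moved as well, from 0.276% in the fit to those 2 groups to 28.8% without both libraries. For anti-CD8a against IgG, the fit to 2 groups gave 5 higher (19.5% of all genes higher), and leaving out 1 library 5 to 9. Upper-quartile normalization gave 11 lower, and leaving out 1 library 11 to 18. The single member lower in anti-PD-L1 against control became 2 with RLE, upper-quartile normalization, the fit to 2 groups and DESeq2, 0 with no filter, 0 without both libraries that stood apart, and 0 to 1 without 1 library. For anti-CD8a against control, no filter and DESeq2 gave 1 higher, and leaving out 1 library 0 to 1. For anti-PD-L1 against anti-CD8a, the fit to 2 groups gave 6 higher and 0 lower, with 6.71% of all genes higher and 5.86% lower. There DESeq2 gave 2 lower (9.69% of all genes), and leaving out 1 library 7 to 12 higher and 0 to 1 lower. The causes were not tested.

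The replicate numbers did not pair the libraries: deviations from group means correlated above 0.1 in 3 of 19 same-numbered pairs (r from -0.345 to 0.18), and in 6 of 38 cases a library correlated best with its own number in the other group. With the replicate block, 0 members were higher in anti-PD-L1 against IgG, 4 were higher in anti-CD8a against IgG and 0 lower in anti-PD-L1 against control. The shares of all genes in the same order were 0.473%, 18.1% and 9.18%. Under upper-quartile normalization the split of all genes in IgG against control went from 4335 higher and 4075 lower to 3239 and 5526. Depth limits the lowest members: Galns, Glb1 and Sgsh were at under 7 CPM in every library.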
